A study of Mus musculus with 6 samples.

Results

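Imprinted genes known for a part in stem cell quiescence and growth were read from a table of 29872 mouse gene symbols: H19, Meg3, Rian, Dlk1, Igf2, Ndn, Peg3, Grb10, Plagl1 and Cdkn1c. They were chosen by name, and all 10 were found by exact symbol. The table holds estimated RNA sequencing counts of 6 libraries, 3 labelled CML (chronic myeloid leukaemia, a leukaemia driven by the BCR-ABL fusion kinase) and 3 labelled WT (wild type). All 6 came from untreated bone marrow cells of the C57BL/6 background, expanded ex vivo and sorted as Lin-Sca1+cKit+CD150+, a surface phenotype of blood stem cells. The labels used here give no allele, promoter or inducer of the leukaemia and no age. Nor do they say whether replicates were separate animals or cultures, so a p-value here measures the spread among libraries alone, and that spread may be technical.

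An imprinted gene is read mainly from the copy inherited from 1 parent, under the control of a mark, usually DNA methylation, set on 1 parental copy in the germ line. Many such genes act on growth. H19, Meg3, Rian, Cdkn1c and, in most tissues, Grb10 are read from the maternal copy, and Igf2, Dlk1, Ndn, Peg3 and Plagl1 from the paternal copy. In blood stem cells several of them are known for holding cells at rest or limiting their response to growth factors. Counts per gene do not show which parental copy was read.

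Among these genes Grb10 was the abundant member and the only one of those tested that changed (edgeR quasi-likelihood test over 16221 genes, Benjamini-Hochberg adjusted p under 0.05). Its RNA was lower in CML, at 86.6 ± 10.1 CPM (counts scaled to a common library size with the trimmed mean of M values) against 193 ± 31.4 CPM in WT (SD, n = 3). The other members were scarce, at means below 10 CPM in both groups. Of the 10 members 6 had enough counts to be tested, and 4 (H19, Meg3, Igf2 and Peg3) did not. Of the 6, 1 was called lower and 0 higher, a share close to the 17.4% of all tested genes that were called. Genes called lower made up 7.20% of those tested, and genes called higher 10.2%. The groups did not overlap for 1 of the 6, which was lower, against 35.0% of tested genes (16.5% lower and 18.5% higher).

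Grb10 can be read from more than 1 start. The windows of 250 bases before the RefSeq starts of Grb10 on GRCm38.p6 are printed here because Grb10 alone of the tested members was called. Both run 5′ to 3′ on the minus strand, with each CG in capitals. The upstream window is chr11:12037421-12037670 and lies inside the span of Grb10 in GENCODE M21, which reaches to 12038683. The downstream window is chr11:12027972-12028221 and also lies inside that span.
Grb10 upstream start: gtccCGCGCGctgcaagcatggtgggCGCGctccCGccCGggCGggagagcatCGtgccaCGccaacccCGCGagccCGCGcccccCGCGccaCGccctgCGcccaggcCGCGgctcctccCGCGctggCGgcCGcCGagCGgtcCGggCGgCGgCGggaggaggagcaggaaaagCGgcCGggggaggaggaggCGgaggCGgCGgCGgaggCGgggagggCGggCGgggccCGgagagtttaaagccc
Grb10 downstream start: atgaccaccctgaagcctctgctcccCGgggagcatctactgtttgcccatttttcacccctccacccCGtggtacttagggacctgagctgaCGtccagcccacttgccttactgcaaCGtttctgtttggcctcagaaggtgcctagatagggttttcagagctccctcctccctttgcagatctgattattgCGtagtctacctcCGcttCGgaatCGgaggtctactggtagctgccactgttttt
The upstream window held 40 CG and the downstream window 8, where the median of 32851 such mouse windows was 6. The upstream count was above that of 98.7% of all windows. Neither held the hexamer TGCCGC, known as the core motif of ZFP57, on either strand, and 8.68% of all windows did. Nor did either hold TTCNNNGAA, the palindrome bound by STAT factors, found in 7.02% of all windows. No other bases of Grb10 were searched for these motifs. Whether either window carries the mark that controls imprinting was not tested. The counts are per gene, so the data do not tell RNA from different starts of Grb10 apart. RefSeq windows were found for 8 of the 10 members, and not for H19 and Cdkn1c.

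**Figure D1:**
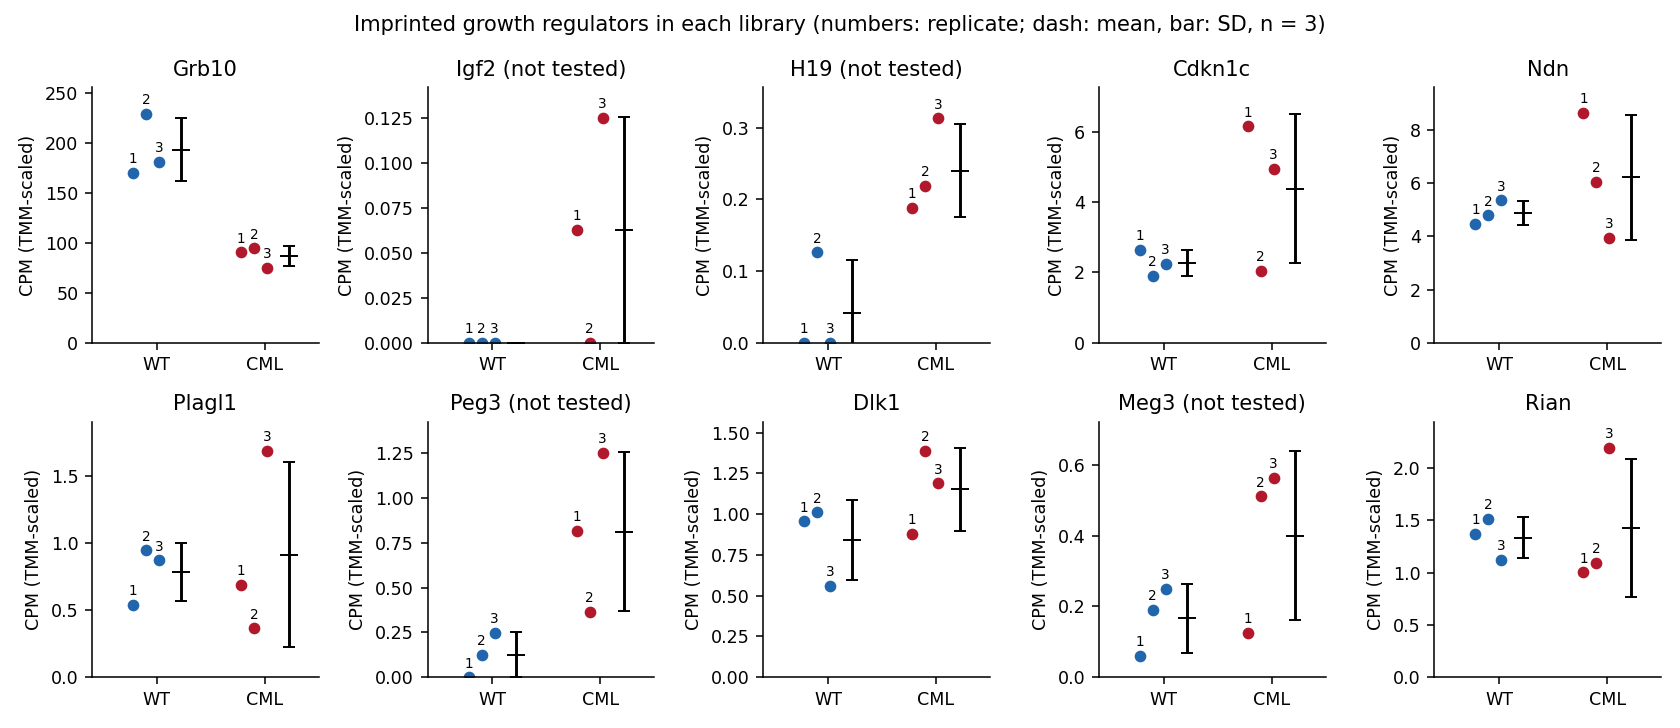
CPM (y axis, from 0, a scale of its own in each panel) of the 10 members in the 3 WT (blue) and 3 CML (red) libraries, numbered by replicate; the dash and bar give mean and SD (n = 3), cut at 0. Grb10 reaches at most 94.3 CPM in CML and at least 170 CPM in WT, and the other members stay below 10 CPM.

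Grb10 encodes an adaptor that binds activated insulin and IGF-1 receptors, damps their signal, and is known to restrain growth and to act in blood stem cell self-renewal. It lies on chromosome 11 (11930508 to 12038683, minus strand, GRCm38). Its level was 90.5, 94.3 and 75.2 CPM in CML replicates 1, 2 and 3, and 170, 229 and 181 CPM in WT replicates 1, 2 and 3. Every CML library lay below every WT library. The log2 fold change was -1.16 (SE 0.14, 95% interval -1.46 to -0.86, edgeR adjusted p = 0.000117), a ratio of means of 0.449. The difference was larger than the spread between libraries of a group. It was called under each of 13 alternatives of test, scaling, filter, block or left-out library, with log2 fold changes from -1.25 to -1.02 and adjusted p from 3.1e-13 to 0.00103. In bulk libraries less RNA per cell and fewer cells that hold the RNA cannot be told apart.

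Markers of other cell types moved with the groups as well. Over all tested genes 10.2% were called higher and 7.20% lower, and the counts of calls in these lists stand beside those shares. The lists were chosen with earlier results of these data known, so a share above those cannot be read as an excess. Over 14 mast cell and basophil genes the summed level was 184 to 375 CPM in WT and 2090, 7331 and 4644 CPM in CML replicates 1, 2 and 3. Of the 13 tested, 7 were called higher and 0 lower. Mcpt1 and Tpsab1, among the 7, had fewer than 10 counts in every WT library. The low-count filter thus admitted them to the test through CML alone. In CML replicates 1, 2 and 3 Grb10 had 90.5, 94.3 and 75.2 CPM. Over 14 monocyte and macrophage genes the sums were 238 to 295 CPM in WT and 362 to 430 CPM in CML (5 of 9 tested higher, 0 lower). Over 12 erythroid and megakaryocyte genes they were 394 to 429 CPM in WT and 114 to 228 CPM in CML (1 of 11 higher, 3 lower). The part of these cell type markers in the difference of Grb10 was not tested. In the erythroid and megakaryocyte list the calls of Hbb-bs, Hbb-bt and Itga2b, the 3 lower genes, were each lost without 1 or more single libraries. Klf1, the higher gene of that list, had fewer than 10 counts in every WT library and was likewise admitted through CML alone. Lymphoid markers summed to at most 7.95 CPM in any library, and Il7r, the only one tested, had 0.82 (edgeR adjusted p = 0.0561). It passed in 3 of 13 alternatives, without CML replicate 1 (0.0328), with library totals (0.0366) and with a mean of at least 50 counts (0.0462). Of 18 stromal and endothelial genes, 8 had fewer than 10 counts in every library, Col1a1 and Lum among them. Their sums were 129 to 160 CPM in WT and 241 to 298 CPM in CML (2 of 6 tested higher, 2 lower), and Pdgfrb alone, a receptor gene, went from 28.2 ± 3.27 CPM to 106 ± 9.97 CPM.

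The genes of the sort gate had counts in all libraries. Kit ran from 202 to 402 CPM in CML and from 285 to 302 CPM in WT. Ly6a (Sca1) ran from 65.3 to 172 CPM in CML and from 40.0 to 64.2 CPM in WT. Its groups did not overlap, but its log2 fold change of 1.03 did not pass (edgeR adjusted p = 0.173). Slamf1 (CD150) ran from 11.2 to 19.2 CPM in CML and from 18.7 to 31.8 CPM in WT. Of 11 tested gate and stem cell genes 0 were called higher and 3 lower. Among all tested genes the shares were 10.2% higher and 7.20% lower. The 3 included Hlf, a stem cell transcription factor gene (log2 fold change -1.36), and Slamf1 (-0.80). The Hlf call was lost when CML replicate 1, or either of WT replicates 1 and 2, was left out (edgeR adjusted p = 0.0678, 0.141 and 0.0764) and with no low-count filter (0.102). The Slamf1 call was lost without CML replicate 1 or 3 or WT replicate 1 or 2 (0.0946, 0.152, 0.134 and 0.158), with library totals (0.0563) and with a mean of at least 50 counts (0.0520).

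Cdkn1c encodes p57, the cyclin-dependent kinase inhibitor best known for holding blood stem cells in quiescence (chromosome 7, 143458339 to 143461050). CML replicates 1, 2 and 3 gave 6.15, 2.04 and 4.94 CPM, and the WT libraries 2.63, 1.89 and 2.24 CPM. CML replicates 1 and 3 were above every WT library, and CML replicate 2 was within the WT range. The log2 fold change of 0.96 (SE 0.36, 95% interval 0.18 to 1.74) did not pass over all genes (edgeR adjusted p = 0.0848). Without CML replicate 2 it was 1.29 and passed (adjusted p = 0.00671); over the other 12 alternatives the adjusted p was above the threshold. Without CML replicate 1 it fell to 0.64 (adjusted p = 0.251). An antisense gene covers 30.7% of the exonic bases of Cdkn1c in GENCODE M21. How the strand was treated is not given in the sources used here, so reads of the antisense gene could count towards Cdkn1c.

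Necdin, the product of Ndn, is a growth suppressor of the MAGE family that binds p53 and E2F1 (chromosome 7, 62346569 to 62350262). Ndn was at 8.66, 6.05 and 3.94 CPM in CML and 4.48, 4.80 and 5.36 CPM in WT. The CML libraries lay on both sides of the WT libraries. The log2 fold change was 0.35 (SE 0.27, 95% interval -0.23 to 0.93, edgeR adjusted p = 0.409), and 0.03 without CML replicate 1. Plagl1 encodes a zinc finger factor of growth arrest that is known to act on other imprinted genes. It had 11, 5 and 27 counts in CML and 9, 15 and 14 in WT, a log2 fold change of 0.24 (95% interval -0.86 to 1.35, adjusted p = 0.788). CML replicate 3 was the highest library and CML replicate 2 the lowest, and without CML replicate 3 the value turned to -0.55.

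Peg3, Dlk1, Meg3, Rian, H19 and Igf2 follow in the order of their role. Peg3 encodes a zinc finger factor tied to p53-dependent cell death (chromosome 7, 6703892 to 6730431). It had 13, 5 and 20 counts in CML and 0, 2 and 4 in WT, so the groups did not overlap but only 2 libraries reached 10 counts. The ratio of the summed counts was 6.75 (38 against 6, exact 95% binomial interval 2.83 to 19.5, which covers counting error only). The low-count filter kept Peg3 out of the test. With no filter edgeR called it higher (adjusted p = 0.0109; 6.04% of 29299 genes were called higher), and DESeq2 did so narrowly (adjusted p = 0.0497; 9.03% called higher). Only CML replicates 1 and 3 reached 10 counts, and the fits that left out either of them did not admit Peg3. Admission thus rested on the group in which it was high, so the fits that did admit it are given as values only. Their adjusted p was 0.0139 without CML replicate 2, 0.0261 without WT replicate 3, 0.0861 without WT replicate 1 and 0.0956 without WT replicate 2.

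Dlk1, Meg3 and Rian lie side by side on chromosome 12. Dlk1 encodes a membrane protein of the delta-like family, and Meg3 and Rian are long noncoding RNAs of the maternal copy, Rian being the host of many small nucleolar RNAs. Dlk1 had 14, 19 and 19 counts in CML and 16, 16 and 9 in WT (log2 fold change 0.44, 95% interval -0.39 to 1.27, edgeR adjusted p = 0.471). Rian had 16, 15 and 35 counts in CML and 23, 24 and 18 in WT (0.10, interval -0.71 to 0.91, adjusted p = 0.885). The groups overlapped for both genes, and Rian turned to -0.35 without CML replicate 3 and to -0.01 without WT replicate 3. Meg3, with 2, 7 and 9 counts in CML and 1, 3 and 4 in WT, was not tested; its ratio of 2.40 had an interval of 0.993 to 6.38. In the same cluster Rtl1, a gene derived from a retrotransposon, was not tested; CML held 10 counts against 0, and the exact 95% binomial interval of the ratio starts at 2.39. Mirg had 7 counts against 4, and Dio3 2 against 1.

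H19, a noncoding RNA known to keep blood stem cells quiescent, and Igf2, the growth factor gene beside it on chromosome 7, were almost undetected. H19 had 3, 3 and 5 counts in CML and 0, 2 and 0 in WT, with a ratio of 5.86 (11 against 2, interval 1.28 to 54.4). Igf2 had 1, 0 and 2 counts in CML and 0 in every WT library. Each group summed to 3 counts or fewer, so no fold is given. Over the WT group 3 counts equal 0.0617 CPM. Gm49394, a protein-coding gene on the same strand, shares 62.8% of the exonic bases of Igf2 in GENCODE M21. How shared reads were divided is not given in the sources used here, so reads of Igf2 could be missing from its count. Of the 10 members 3 did not overlap between groups, against 24.9% of all genes in the table: Grb10, lower, and H19 and Peg3, which were higher in every CML library than in every WT library. Separation in that direction held for 14.9% of all genes. For H19 a single count decides it. With no filter H19 did not pass (edgeR adjusted p = 0.263).

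**Figure D2:**
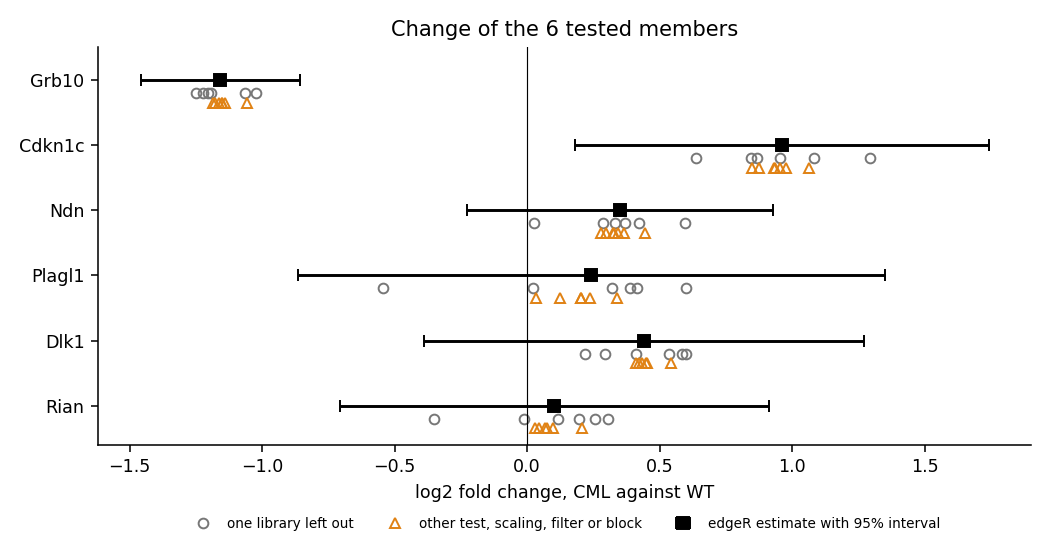
Log2 fold change (x axis, CML against WT) of the 6 tested members: squares with 95% intervals are the edgeR estimates, circles the fits with 1 library left out, triangles the other tests, scalings, filters and the replicate block. Grb10 stays between -1.25 and -1.02; Cdkn1c, Ndn and Dlk1 stay above 0, while Rian and Plagl1 lie on both sides of 0.

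Levels of different genes were compared per kilobase of exon. In WT the order began with Grb10 at 21.2 ± 3.45 CPM per kb, followed by Ndn at 1.32 ± 0.12 and Cdkn1c at 1.11 ± 0.18. Ndn and Cdkn1c overlapped. Dlk1 (0.149 ± 0.043), Plagl1 (0.1005 ± 0.0279) and Rian (0.0733 ± 0.0110) came next, Plagl1 overlapping both of the others, and H19, Peg3, Meg3 and Igf2 were lower still, without overlap between Rian and H19. In CML Grb10 stood at 9.53 ± 1.11 CPM per kb, again without overlap with the next gene, and Cdkn1c at 2.15 ± 1.04 was above Ndn at 1.68 ± 0.64, with overlap. Among all genes with a known exon length the level of Grb10 exceeded 90.8% in WT and 81.6% in CML. Grb10 held between 82.3% and 95.6% of the counts of the 10 members in a library.

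Some genes near Grb10 moved the other way. Within 500 kb of Grb10, 6 other genes were tested, and 2 were called higher and 0 lower, where 10.2% of all tested genes were higher and 7.20% lower. Ddc, which encodes aromatic amino acid decarboxylase and is imprinted in some tissues, is offset from Grb10 by -116 kb (lower coordinates compared). Its CML libraries had 3.33, 5.91 and 3.69 CPM and its WT libraries 0.48, 1.20 and 0.87 CPM, without overlap. It rose by 2.33 on the log2 scale (SE 0.37, edgeR adjusted p = 0.000881). Cobl, an actin nucleator gene chosen after its values were seen, lies at +306 kb. Its CML libraries had 5.52, 18.7 and 11.7 CPM and no WT library more than 0.19 CPM (change of 6.30, SE 0.62, adjusted p = 0.000200). The part of cell type markers in the difference of Cobl was not tested. The calls of Ddc and Cobl held in every alternative that tested them. Cobl had fewer than 10 counts in every WT library. The low-count filter admitted it to the test through CML alone, so its call is given as a value only. Ikzf1 and Fignl1, abundant neighbours, had log2 fold changes of -0.03 (95% interval -0.27 to 0.22) and -0.14 (-0.39 to 0.11).

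**Figure D3:**
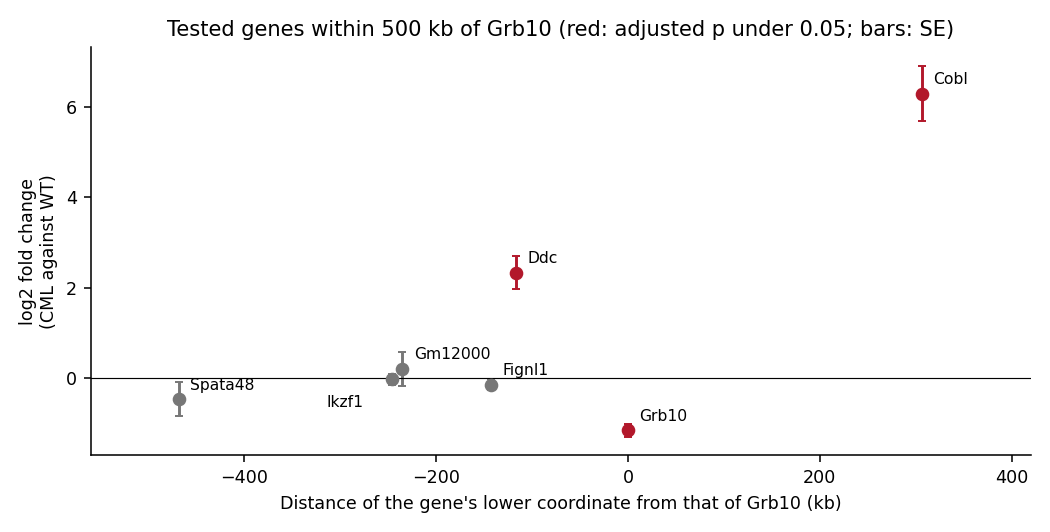
Log2 fold change (y axis, CML against WT, bars SE) of the tested genes within 500 kb of Grb10 by the distance between lower coordinates (x axis, kb); red marks an adjusted p under 0.05. Grb10 lies at -1.16, Ddc at 2.33 and Cobl at 6.30, and the other 4 genes were not called.

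The neighbours of the other members were mixed. Their calls stand beside the 10.2% of all tested genes called higher and the 7.20% called lower. Of 17 tested genes within 500 kb of Cdkn1c 3 were called higher and 0 lower, the nearest being Slc22a18, an imprinted transporter gene. CML libraries averaged 6.26 ± 0.63 CPM and WT libraries 2.32 ± 0.06 CPM (change of 1.43 on the log2 scale, SE 0.22, edgeR adjusted p = 0.000844). Phlda2, a growth-limiting imprinted gene in that cluster, had a value of -0.999 that did not pass (adjusted p = 0.0659), although its groups did not overlap. Kcnq1ot1, the noncoding RNA that silences Cdkn1c and Phlda2 on the paternal copy, averaged 133 ± 10.7 CPM among CML and 182 ± 52.7 CPM among WT libraries. Its log2 fold change of -0.46 did not pass (adjusted p = 0.139), but without WT replicate 3 it was -0.67 and did (0.00211). Without WT replicate 1 it was -0.28 (0.387). Beside Ndn, Mkrn3 had 0.16 and Peg12 -0.43 (adjusted p = 0.657 and 0.192), with 2 neighbours tested and 0 called. Snrpn, farther along that chromosome, had -0.25 (0.782). Usp29 and Zim1, next to Peg3, had 18 counts against 13 and 14 against 11. Beside Plagl1, Phactr2 had -0.13 (0.588), and of 7 tested neighbours 1 was higher and 1 lower.

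A wider list of 66 genes reported as imprinted in the mouse was read the same way; 58 were in the table and 38 were tested. CML had 5 of them higher and 3 lower, 21.1% against 17.4% of all genes. The median log2 fold change was -0.09 beside -0.00425 over all tested genes. The largest decrease was that of Slc22a3, an organic cation transporter gene, from 132 ± 25.2 CPM in WT to 26.1 ± 8.66 CPM in CML (-2.34 on the log2 scale, SE 0.26). Igf2r, in the same cluster, encodes the receptor that clears Igf2, and rose from 0.72, 0.88 and 2.18 CPM in WT to 5.71, 6.13 and 6.07 CPM in CML (2.24, SE 0.35, edgeR adjusted p = 0.000918). Ddc and Slc22a18, given with the neighbours of Grb10 and Cdkn1c, also rose. The other 4 calls, chosen after their values were seen, were Peg13 (-1.05), Ppp1r9a (-1.05), Zrsr1 (0.64) and Qpct (1.41). Zrsr1 lost its call in 4 of the fits with 1 library left out (without CML replicate 2 or 3 or WT replicate 1 or 2; adjusted p from 0.0582 to 0.116). Qpct lost it without CML replicate 1 or 2 or any 1 WT replicate (0.0593 to 0.125) and with DESeq2 (0.0926).

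**Figure D4:**
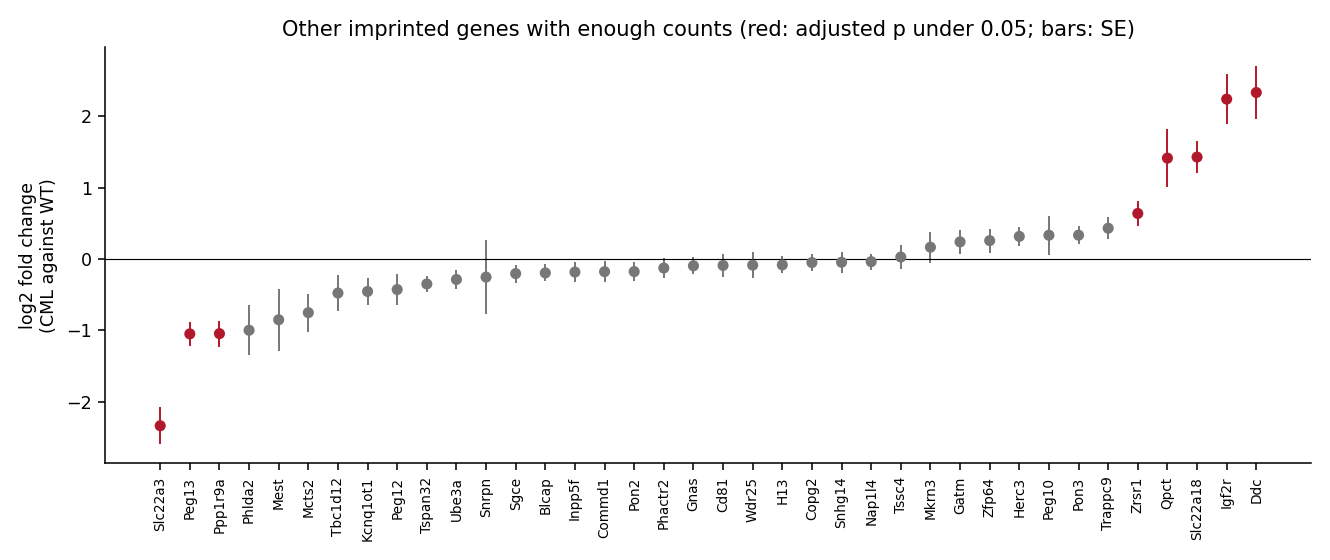
Log2 fold change (y axis, CML against WT, bars SE) of the 38 tested genes of the wider imprinted list, in order of their value (x axis); red marks an adjusted p under 0.05. The 5 genes called higher reach 2.33 (Ddc), and the 3 called lower reach -2.34 (Slc22a3).

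Of 22 listed factors that set or keep imprints, 19 were tested, 0 were higher and 2 were lower (10.5% called). Zfp57 encodes the zinc finger protein that guards methylation at imprinting control regions. Its CML libraries had 0.94, 1.31 and 1.19 CPM and its WT libraries 8.78, 7.70 and 10.03 CPM, without overlap (change of -2.94, SE 0.25, edgeR adjusted p = 6.31e-06). Dnmt3b, a de novo DNA methyltransferase gene, averaged 23.9 ± 3.05 CPM among CML and 62.5 ± 10.6 CPM among WT libraries (-1.38, SE 0.15, adjusted p = 5.46e-05). Both were called in all 13 alternatives. Ctcf, Trim28 and Dnmt1 did not pass, with values of -0.0011, 0.02 and -0.14.

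The IGF axis, on which Grb10, Igf2 and Igf2r act, changed in 5 of 13 tested members, 3 higher and 2 lower. Over all tested genes 17.4% were called, 10.2% higher and 7.20% lower, and the counts of this list and of the next 3 stand beside those shares. The lists were chosen with earlier results of these data known, and some genes stand in more than 1 list. A share above that of all genes therefore cannot be read as an excess. Igf1, the growth factor gene related to Igf2, had 14.1, 12.9 and 11.6 CPM in its CML and 0.24, 0.25 and 0.12 CPM in its WT libraries (change of 5.91, SE 0.30, edgeR adjusted p = 4.42e-08). Igfbp5, a gene for a binding protein of the IGFs, was called higher, with 1017 counts against 0 and an exact 95% binomial interval of the ratio that starts at 293. Igf1 and Igfbp5 had fewer than 10 counts in every WT library. The low-count filter admitted them to the test through CML alone, so their calls are given as values only. With Grb10, the second lower gene was Igfbp7 (-2.81, adjusted p = 0.00392), chosen after its values were seen. The receptor genes Igf1r and Insr did not pass, with values of -0.04 (95% interval -0.42 to 0.33) and -0.09 (-0.33 to 0.16). Grb7 and Grb14, the close relatives of Grb10, had too few counts to be tested.

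Among the cyclin-dependent kinase inhibitors and D cyclins, 3 of 9 tested were higher and 1 lower (44.4% called). Cdkn1a, which encodes p21, averaged 40.8 ± 4.40 CPM among WT and 78.95 ± 16.98 CPM among CML libraries (change of 0.95, SE 0.16), a change close to that estimated for Cdkn1c but with less spread. Cdkn1b, which encodes p27, the other member of that family, had -0.0041 (95% interval -0.24 to 0.24). Cdkn2d rose by 0.57 and Ccnd3 by 0.37, and Ccnd2 fell by 0.68. The Cdkn2d call was lost without WT replicate 1 or 2 (edgeR adjusted p = 0.0619 and 0.101). The Ccnd3 call was lost in 5 of the 6 fits with 1 library left out (all but that without WT replicate 3; 0.0505 to 0.195) and with no filter (0.0816).

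Of 10 tested Notch and delta-like genes 4 were higher and 0 lower, against 10.2% of all tested genes higher. Dlk2, the closest relative of Dlk1, had 47, 32 and 21 counts in CML and 2, 0 and 0 in WT, a ratio of 53.3 (exact 95% binomial interval 14.4 to 446). Dll1, a Notch ligand gene, had 56, 28 and 85 counts against 2, 2 and 4 (log2 fold change 4.40, SE 0.50, edgeR adjusted p = 7.3e-05). Dlk2 and Dll1 had fewer than 10 counts in every WT library. The low-count filter admitted them through CML alone, so their calls are given as values only. Hes1, a Notch target gene, and Notch2 had 2.19 and 0.55. The Notch2 call was lost without CML replicate 2 or 3 or WT replicate 2 or 3 (adjusted p from 0.0696 to 0.129). Of 9 tested relatives of the protein-coding members 4 were higher and 0 lower: Igf1, Dlk2, Cdkn1a and Maged1. Igf1 and Dlk2 are among the genes admitted through CML alone. Maged1, of the family of Ndn, rose by 0.83 (SE 0.19, adjusted p = 0.00909), and missed the threshold without WT replicate 2 (0.0600).

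**Figure D5:**
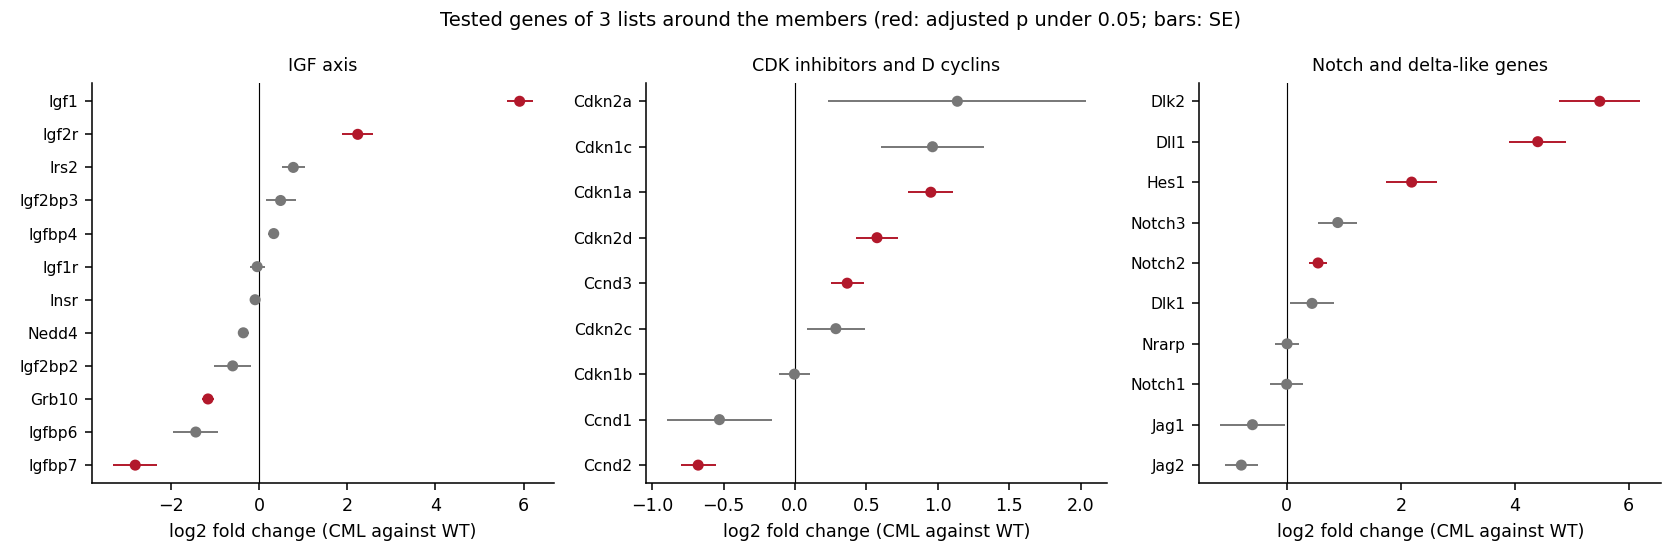
Log2 fold change (x axis, CML against WT, bars SE) of the tested genes of the IGF axis, of cyclin-dependent kinase inhibitors and D cyclins, and of Notch and delta-like genes; red marks an adjusted p under 0.05, and Igfbp5, at 0 in WT, is not drawn. Grb10 (-1.16) and Igf1 (5.91) lie on opposite sides of 0, and Dlk2 (5.49) lies far from Dlk1 (0.44).

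Depth sets the limits for the scarce members. Library totals ran from 13323469 to 17926847 counts. Over all genes 1652 were called higher and 1168 lower in CML, so 58.6% of the calls were higher; scaled by library totals the counts were 2065 and 732, and 73.8% were higher. The count of members called rose from 1 to 2 with DESeq2, with no low-count filter or without WT replicate 3, each time by Peg3. It rose to 3 without CML replicate 2, by Peg3 and Cdkn1c. Without CML replicate 2, 11.2% of all tested genes were called, and without WT replicate 3 24.5%.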

How the data were processed

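RNA of 3 CML and 3 WT libraries was isolated with a column kit and made into libraries with Nextera XT, per the labels' protocols. The authors deposited estimated counts per gene symbol, not scaled to a common total; in each library 35.0% to 36.9% of entries had decimals. The submitters' processing notes name STAR 2.7.3a, Partek 8.0 and mm10, with no role. For annotation, strand setting and the division of shared reads, the sources used here state nothing. Groups and replicate numbers came from the sample titles, and library columns were matched to those titles. Counts were rounded. The members and gene lists were chosen with earlier results of these data known.

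The test was edgeR 4.0.16 (R 4.3.3), quasi-likelihood with robust dispersions, TMM scaling, filterByExpr (minimum count 10) and group as the only term, two-sided, with Benjamini-Hochberg adjustment over 16221 genes and a threshold of 0.05. SEs were derived from the fold change and F; 95% intervals use the moderated degrees of freedom. Ratios of low counts use counts summed over a group and exact binomial intervals, which cover counting error only. DESeq2 1.42.0, limma-voom (limma 3.58.1), other scalings and filters, a replicate block and each library left out were alternatives. The text names all members, genes at their loci and, from each list, up to 4 called genes with the lowest adjusted p. A gene that this rule names is not reported here. Exon lengths and coordinates came from GENCODE M21 (28891 of the symbols matched), windows before start sites from RefSeq (GRCm38.p6). The fit was tested on simulated data. No pair of libraries differed by as little as sampling noise (smallest chi-square per degree of freedom 7.92).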

Additional observations from a re-analysis of the deposited data

How the results depend on the processing

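Of 55 named genes with a test, 35 kept their direction and their side of the threshold in every alternative; of 702 values under alternatives 642 did so, 51 lost a call, 5 gained one and 4 changed sign. The 4 were Rian (-0.35 without CML replicate 3, -0.01 without WT replicate 3), Plagl1 (-0.55 without CML replicate 3) and Snrpn (0.044 without CML replicate 2), none of them called; the cause was not tested. With 1 library left out Rian ran from -0.35 to 0.31, Plagl1 from -0.55 to 0.60 and Snrpn from -1.01 to 0.044. The number of members called was 1, and 2 with DESeq2 or with no low-count filter, which admit Peg3 to the test; with 1 library left out it ran from 1 to 3. The number of all genes called was 2820 and ran from 1466 (without WT replicate 2) to 4122 (without WT replicate 3) with 1 library left out, those higher in CML from 1011 to 2021 and those lower from 455 to 2101. Leaving out CML replicate 2 gave 1861, CML replicate 3 gave 1771 and WT replicate 1 gave 1857. Scaled by library totals, 732 genes were lower, and the median log2 fold change of all genes moved by 0.0987. The other imprinted genes called numbered 8, and 6 to 11 over all alternatives.

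No pairing by replicate number was seen. Deviations of CML and WT libraries with the same number correlated at -0.02, -0.05 and 0.01. No CML library correlated best with the WT library of its own number. With 3 libraries per group such a check cannot exclude a shared round of culture or preparation, on which the labels used here are silent. With the replicate block 2807 genes were called, Grb10 was at -1.15, and among the named genes the call of Cpa3 alone was lost (adjusted p = 0.104). Depth limits H19, Meg3, Igf2 and Peg3, which had at most 20 counts in a library.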
